A study of Mus musculus with 2 samples.

Results

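The resting fibroblast identity genes described here are Dpt, Pi16, Cd34, Ly6a, Ly6c1, Col14a1, Clec3b, Penk and Gsn, taken by symbol as 9 of the 53698 gene entries of each deposited matrix. All 9 passed the filter on low values in fibroblasts, which asked for at least 10 CPM (UMI counts scaled to a common total) in either library. The cells were kidney cells of FVBN mice, labelled positive for the PDGF receptors a and b, and were profiled with 10x Chromium version 2 chemistry. This droplet method reads the 3′ end of transcripts and tags each captured molecule with a unique molecular identifier (UMI). There was 1 library from a kidney labelled UUO (unilateral ureter obstruction, a surgery that blocks urine flow and scars the kidney), taken 10 days after surgery, and 1 library from a kidney labelled sham. The labels give neither the age, the sex nor the number of animals behind a library. With 1 library per group no test between libraries could be made, and no p-value is given.

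Resting fibroblasts hold the connective tissue around vessels and between tubules in place by secreting collagens and the small proteins that organise them. In many mouse organs a population in the outer coat of larger vessels is known for Pi16, Dpt, Cd34, Ly6a and Clec3b. Fibroblasts that turn into contractile, matrix-producing cells are known for Acta2, Postn and other genes. Not all of the identity genes are private to fibroblasts: Cd34, Ly6a and Ly6c1 are also surface genes of mouse endothelial cells, and Gsn is used by many cell types.

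The genes have several roles. At the cell surface, Cd34 encodes a sialomucin also known from blood-forming progenitors, while Ly6a encodes Sca-1 and Ly6c1 encodes Ly6C, both small lipid-anchored proteins. Pi16 encodes peptidase inhibitor 16, a protein of the CAP family. In the matrix, Dpt encodes dermatopontin, which binds decorin and promotes collagen fibril assembly, and Col14a1 encodes the chain of collagen XIV, which sits on collagen fibrils. Clec3b encodes tetranectin, a plasminogen-binding lectin. Penk encodes proenkephalin, the precursor of enkephalin peptides, and Gsn encodes gelsolin, which cuts and caps actin filaments. In GENCODE M21 on GRCm38, the forward strand holds Dpt at chr1:164796644-164824266, Pi16 at chr17:29317680-29330593, Cd34 at chr1:194938819-194961279, Col14a1 at chr15:55307750-55520803, Clec3b at chr9:123150946-123157432 and Gsn at chr2:35256380-35307892. The reverse strand holds Ly6a at chr15:74994877-74998031, Ly6c1 at chr15:75044018-75048830 and Penk at chr4:4133531-4138819. Dpt, Pi16, Cd34, Col14a1 and Penk overlap annotated genes of the opposite strand, and Gsn overlaps Gm43128 on its own strand. Since strand use in counting was not given in the sources used here, reads of such partners cannot be told apart.

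Promoters of 4 genes are shown because most of the identity genes differed between the libraries in the same direction. RefSeq promoter windows of GRCm38.p6 run from 250 bases before to 50 bases after a RefSeq start. They matched 5 of the 9 genes (Dpt, Pi16, Cd34, Ly6c1 and Gsn) with 8 windows. RefSeq starts can differ from the GENCODE ones above. The Pi16 window and Gsn windows 2 and 3 lie wholly inside the GENCODE spans of those genes. Ly6a, Col14a1, Clec3b and Penk had no entry in that table. Windows are written 5′ to 3′ on the gene's strand. Capitals mark the motifs searched on both strands, which were TATAAA (the TATA box), CAGCTG (an E-box, its own reverse complement), TGANTCA (an AP-1 site), GGGCGG (a GC box) and CCAAT (the CCAAT box). The Dpt window is chr1:164796413-164796712 (forward strand), the Pi16 window chr17:29318632-29318931 (forward strand), the Cd34 window chr1:194938571-194938870 (forward strand) and the Ly6c1 window chr15:75048788-75049087 (reverse strand), the first of 2 Ly6c1 entries.
Dpt: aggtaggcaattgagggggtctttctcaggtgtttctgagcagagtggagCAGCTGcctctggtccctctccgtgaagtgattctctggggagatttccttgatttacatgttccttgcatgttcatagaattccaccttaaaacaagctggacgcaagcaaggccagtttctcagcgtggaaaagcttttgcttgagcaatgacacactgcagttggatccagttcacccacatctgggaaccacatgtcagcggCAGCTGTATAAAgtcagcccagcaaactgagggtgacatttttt
Pi16: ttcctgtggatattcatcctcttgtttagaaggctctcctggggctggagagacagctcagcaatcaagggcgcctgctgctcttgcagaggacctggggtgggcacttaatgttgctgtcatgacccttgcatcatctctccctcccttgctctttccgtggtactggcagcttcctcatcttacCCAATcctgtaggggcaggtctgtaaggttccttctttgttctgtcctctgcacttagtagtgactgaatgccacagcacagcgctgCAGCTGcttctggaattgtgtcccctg
Cd34: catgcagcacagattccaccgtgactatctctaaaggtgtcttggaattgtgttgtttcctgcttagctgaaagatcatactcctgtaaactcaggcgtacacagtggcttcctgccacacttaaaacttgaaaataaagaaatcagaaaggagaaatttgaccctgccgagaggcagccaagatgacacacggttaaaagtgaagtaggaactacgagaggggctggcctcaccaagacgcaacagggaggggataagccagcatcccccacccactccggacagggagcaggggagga
Ly6c1: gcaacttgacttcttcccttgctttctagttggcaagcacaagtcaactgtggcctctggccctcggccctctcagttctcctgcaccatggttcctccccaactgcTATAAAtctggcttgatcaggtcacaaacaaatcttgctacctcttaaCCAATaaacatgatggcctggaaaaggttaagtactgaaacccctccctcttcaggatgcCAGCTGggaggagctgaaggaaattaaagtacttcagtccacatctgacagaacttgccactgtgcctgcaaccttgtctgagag
The E-box was in at least 1 window of Dpt, Pi16, Ly6c1 and Gsn and in none of Cd34, and it was in 16.3% of all 32851 windows of this length. Shares of all windows are per window, while Ly6c1 with 2 windows and Gsn with 3 had more places for a match. The 2 are thus not like measures. The TATA box was in the windows of Dpt and Ly6c1 printed here and in 13.6% of all windows. In the Dpt window it lies after the start, at position 13. The CCAAT box was in windows of Pi16, Ly6c1 and Gsn and in 37.4% of all windows. The GC box was found in the 3 Gsn windows alone among the 8 and in 35.7% of all windows. The AP-1 site was in none of the 8 and in 7.81% of all windows. No motif searched contains another, and a match describes letters in this window only.

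The UUO-labelled library held 1291 barcodes with 6023072 UMIs (median 3088 per barcode), and the sham-labelled library held 10812 with 85359332 UMIs (median 7740). After filters on UMIs, genes and mitochondrial share, 1052 and 10656 cells were left. The libraries shared 16 barcodes, and every gene's difference between libraries kept its direction without them. Cells were put into classes by UMIs of marker genes, none of them an identity gene. The fibroblast class took 701 UUO-labelled cells (66.6%, exact 95% binomial interval 63.7 to 69.5%) and 9176 sham-labelled cells (86.1%, 85.4 to 86.8%). All 11 fibroblast markers were present in both. Intervals here and below reflect the number of UMIs or cells counted and carry no information on variation between animals. Those built on UMI counts also leave out variation between cells. Some genes stood against what is known of the surgery. Spp1, which encodes osteopontin and is known to be induced in obstructed kidneys, was at 170 CPM in UUO-labelled fibroblasts and 12966 CPM in sham-labelled ones, and Timp1 was at 68.2 and 711 CPM. Directions are therefore stated by library label only. Both libraries held fibroblasts with Xist and no Y-linked UMI (191 UUO-labelled, 5299 sham-labelled) and fibroblasts with the reverse (194 and 1456), and 60 UUO-labelled and 1100 sham-labelled fibroblasts held both.

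Across cell classes, Dpt, Clec3b, Penk and Gsn were at least 2-fold higher in fibroblasts than in endothelial cells in both libraries. Ly6c1, Ly6a and Cd34 were higher in endothelial cells. Of UUO-labelled cells, 5 of the 9 genes were at least 2-fold higher in fibroblasts than in endothelial cells after adding 5 CPM, as were 5.86% of all 10124 genes that passed the filter. There, 1 identity gene was at least 2-fold lower, as were 8.34% of all genes, and 3 were within 2-fold. Of sham-labelled cells, 4 of the 9 were at least 2-fold higher (2.81% of all genes), 3 were lower (7.47% of all genes) and 2 were within 2-fold. Levels below are CPM of UMIs summed over a class, with exact 95% Poisson intervals in brackets.

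Dpt was at 460 CPM (439 to 481) in UUO-labelled fibroblasts and 84.2 CPM (61.2 to 113) in endothelial cells of that library, a ratio of 5.46 (4.05 to 7.55). Among sham-labelled cells it was at 229 CPM (226 to 233) in fibroblasts, 62.7 CPM (54.1 to 72.2) in endothelial cells and 81.4 CPM (71.1 to 92.8) in macrophages. Fibroblasts thus held the highest Dpt level among the named classes with at least 20 cells in both libraries. Clec3b was at 1857 CPM (1816 to 1899) in UUO-labelled fibroblasts, 159 CPM (127 to 197) in endothelial cells and 159 CPM (125 to 200) in proximal tubule cells. Among sham-labelled cells it was at 15.4 CPM (14.5 to 16.3) in fibroblasts and 1.63 CPM (0.53 to 3.81) in endothelial cells, and it had 0 counts in 60 pericytes, which allows up to 8.46 CPM. The fibroblast level of Clec3b was 11.7 (9.42 to 14.7) times the endothelial one where labelled UUO and 9.43 (4.03 to 29.1) times where labelled sham. Penk was at 450 CPM (429 to 471) in UUO-labelled fibroblasts and 59.3 CPM (40.3 to 84.2) in endothelial cells. Sham-labelled fibroblasts held 102 CPM (100 to 105), endothelial cells 20.6 CPM (15.8 to 26.3) and macrophages 28.8 CPM (22.8 to 35.9). The exception was a small class: 25 sham-labelled proximal tubule cells held 43 Penk UMIs, or 196 CPM (142 to 264), found in 6 of the cells.

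The surface genes shared with endothelium had the opposite order. Ly6c1 was at 282 CPM (265 to 298) in UUO-labelled fibroblasts and 1947 CPM (1828 to 2070) in endothelial cells, and at 67.9 CPM (66.1 to 69.8) and 1036 CPM (1000 to 1073) in the same classes labelled sham. Fibroblasts held 0.145 and 0.0656 times the endothelial level in the UUO-labelled and sham-labelled library. Ly6a was at 696 CPM (671 to 722) in UUO-labelled fibroblasts and 1332 CPM (1235 to 1435) in endothelial cells, and at 143 CPM (140 to 146) and 1148 CPM (1110 to 1186) in those classes labelled sham. Cd34, at 230 CPM (216 to 245) in UUO-labelled fibroblasts and 461 CPM (405 to 523) in endothelial cells, was at 34.8 CPM (33.5 to 36.2) and 571 CPM (544 to 598) where labelled sham. All 12 endothelial markers were present in fibroblasts of both libraries. They summed to 675 CPM in UUO-labelled and 576 CPM in sham-labelled fibroblasts, against 8153 and 7526 CPM in endothelial cells.

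Pi16 and Col14a1 were spread over more classes, as was Gsn in sham-labelled cells. Pi16 was at 1106 CPM (1074 to 1139) in UUO-labelled fibroblasts, 527 CPM (466 to 592) in endothelial cells and 382 CPM (327 to 442) in proximal tubule cells. Sham-labelled cells had the other order for fibroblasts and endothelial cells, at 93.5 CPM (91.3 to 95.7) and 132 CPM (120 to 146). Col14a1 was at 430 CPM (410 to 451) in UUO-labelled fibroblasts, 291 CPM (246 to 341) in endothelial cells and 271 CPM (202 to 356) in pericytes. It was at 109 CPM (107 to 112) in sham-labelled fibroblasts, 101 CPM (89.6 to 112) in endothelial cells and 91.6 CPM (80.6 to 104) in macrophages, so the fibroblast and endothelial intervals overlapped there. Gsn was at 11169 CPM (11067 to 11272) in UUO-labelled fibroblasts and 1860 CPM (1745 to 1981) in endothelial cells, and at 799 CPM (793 to 806) and 388 CPM (366 to 411) in those classes labelled sham. Sham-labelled pericytes held 708 CPM (623 to 801) of Gsn and macrophages 453 CPM (429 to 479).

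Pericytes are contractile cells that wrap small vessels, but the markers of this class include Ren1 and Myh11. Cells that make renin and smooth muscle cells can thus be in it. Against 38 UUO-labelled cells of the class, 7 of the 9 genes were at least 2-fold higher in fibroblasts (9.88% of all genes). Against 60 sham-labelled ones, 6 of 9 were (4.33% of all genes). No identity gene was at least 2-fold lower than in pericytes, against 12.4% of all genes where labelled UUO and 4.8% where labelled sham. All 9 were at least 2-fold higher than in 111 UUO-labelled proximal tubule cells, as were 18.5% of all genes. Against the 25 sham-labelled proximal tubule cells, 5 of 9 were higher (19.6% of all genes) and Ly6a was lower (14.4% of all genes). Of those higher, Clec3b and Cd34 each had 1 UMI in the tubule cells. Their ratios were 3.37 (0.604 to 133), an interval that holds 1, and 7.63 (1.37 to 302). Dpt, Clec3b and Penk were the 3 genes at least 2-fold higher in sham-labelled fibroblasts than in 467 macrophages (3.27% of all genes), and none was lower (7.16% of all genes). Against 241 sham-labelled cells with markers of the loop of Henle, distal tubule and collecting duct, 7 of 9 were higher in fibroblasts (11.6% of all genes) and 2 were lower (11.2% of all genes). Those lower in fibroblasts were Ly6a, at 3586 CPM (3516 to 3657) in the tubule cells, and Ly6c1, at 256 CPM (237 to 275). At least 1 Ly6a UMI was found in 96.3% of these tubule cells, and in 93.6% (89.5 to 96.4%) of those with 3000 UMIs once thinned to that depth.

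**Figure D1:**
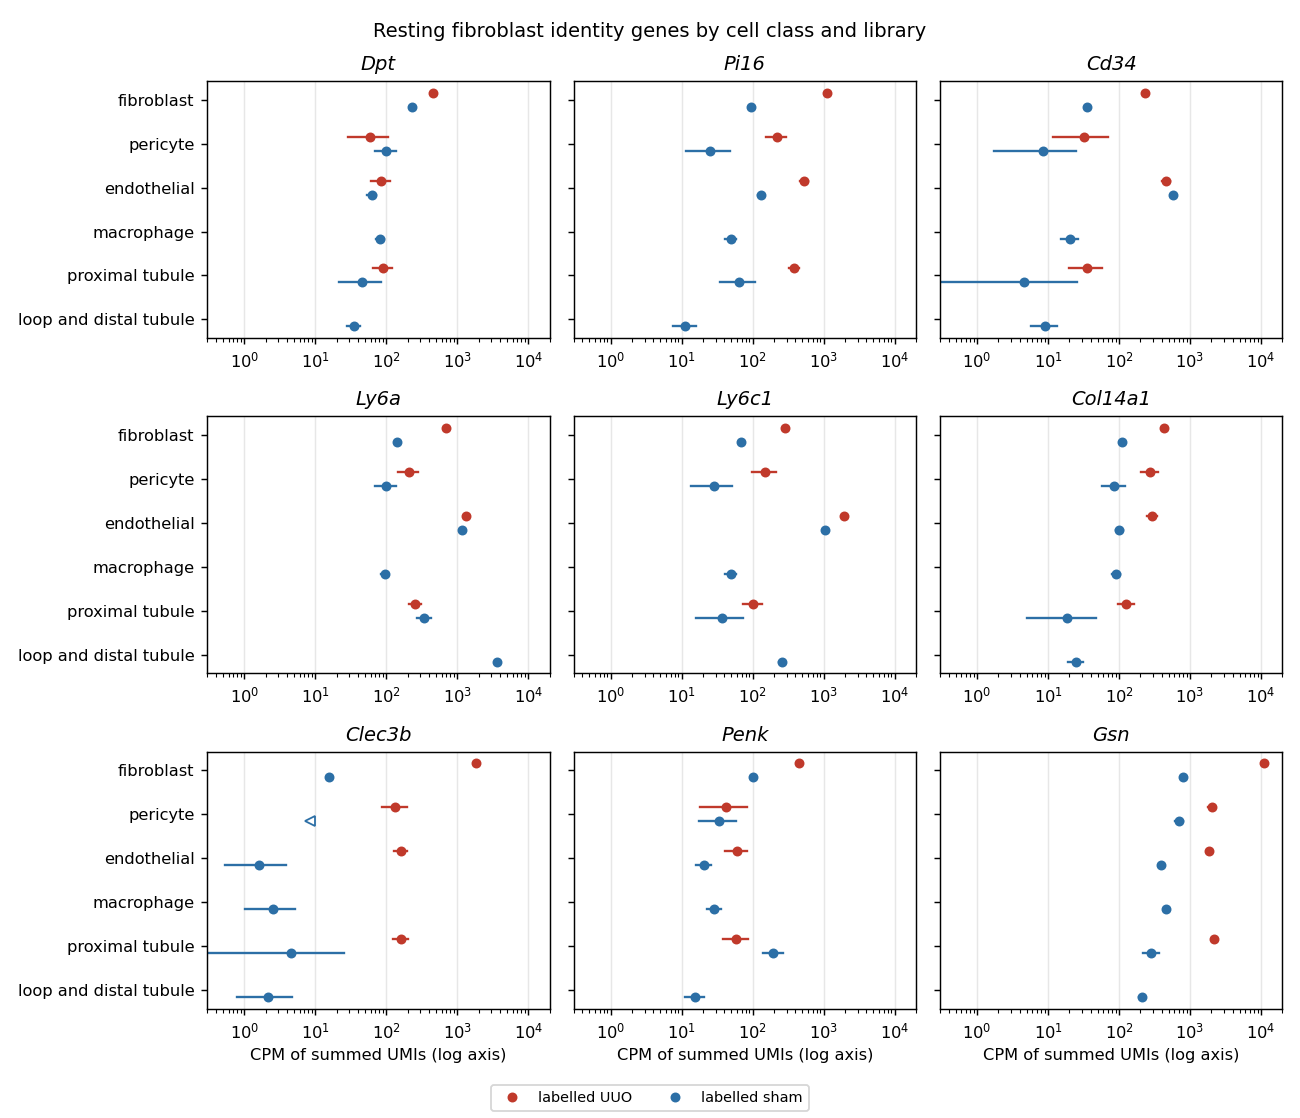
Level of each identity gene by cell class (rows) in CPM of summed UMIs on a log axis, red for the UUO-labelled and blue for the sham-labelled library, with 95% Poisson intervals; classes with under 20 cells are left out and the open triangle is the 8.46 CPM that 0 Clec3b counts allow. Red lies right of blue in the fibroblast row of every panel, and the endothelial points of Ly6c1 lie near 1947 and 1036 CPM.

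Between the libraries, fibroblasts differed in the same direction for all 9 genes. At the threshold of 2-fold after adding 5 CPM, 8 of the 9 were higher in UUO-labelled than in sham-labelled fibroblasts and 0 were lower. Of all 9630 genes that passed the filter, 12.3% were higher by that rule and 4.94% lower. The 9 genes were chosen with earlier results of these data known, so their count is a description and no independent support. The median log2 ratio was 2.25 over the 9 genes and -0.02 over all genes. Ratios below are of CPM with nothing added, with exact conditional binomial intervals in brackets.

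Clec3b, Gsn and Pi16 were furthest apart. Clec3b was at 1857 CPM in UUO-labelled fibroblasts and 15.4 CPM in sham-labelled fibroblasts, a ratio of 121 (113 to 128). Gsn was at 11169 CPM UUO-labelled and 799 CPM sham-labelled, a ratio of 14 (13.8 to 14.1), and Pi16 at 1106 CPM UUO-labelled and 93.5 CPM sham-labelled, a ratio of 11.8 (11.4 to 12.3). Among the surface genes, Cd34 was at 230 CPM UUO-labelled and 34.8 CPM sham-labelled, a ratio of 6.6 (6.12 to 7.11). Ly6a was at 696 CPM UUO-labelled and 143 CPM sham-labelled, a ratio of 4.87 (4.67 to 5.08), and Ly6c1 at 282 CPM UUO-labelled and 67.9 CPM sham-labelled, a ratio of 4.14 (3.88 to 4.42). The libraries were thus less far apart in these 3 surface genes than in Clec3b, Gsn and Pi16. Penk was at 450 CPM UUO-labelled and 102 CPM sham-labelled, a ratio of 4.39 (4.17 to 4.62), and Col14a1 at 430 CPM UUO-labelled and 109 CPM sham-labelled, a ratio of 3.94 (3.74 to 4.15). Dpt differed least, at 460 CPM UUO-labelled and 229 CPM sham-labelled, a ratio of 2.01 (1.91 to 2.11), or 0.99 on the log2 scale after adding 5 CPM. Some genes were also higher in UUO-labelled cells outside the fibroblast class. In endothelial cells, Clec3b was at 159 CPM UUO-labelled and 1.63 CPM sham-labelled, Gsn at 1860 and 388 CPM and Pi16 at 527 and 132 CPM. The part of RNA from other cells in these values was not tested.

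The direction was the same in fibroblasts of either sex chromosome class. Pi16 moved most, with a log2 ratio of 2.70 in cells with Xist and no Y-linked UMI and 3.85 in cells with the reverse, against 3.50 in all fibroblasts. In fibroblasts with at most 5 endothelial marker UMIs per 10000 (337 UUO-labelled and 4482 sham-labelled), the log2 ratio was 3.45 for Cd34, 2.63 for Ly6a and 2.59 for Ly6c1, against 2.56, 2.25 and 1.97 in all fibroblasts. In the 119 and 978 fibroblasts with no endothelial marker UMI, Clec3b had a log2 ratio of 4.81, against 6.51. Ly6a had 1.46 there, against 2.25, Penk 1.36, against 2.08, and Dpt 1.67, against 0.99. Having no such UMI also favours shallow cells. Of these cells, 32 and 341 were deep enough for the thinning below, against 457 of 701 and 7457 of 9176 fibroblasts. With at most 5 per 10000, the log2 ratio was 6.47 for Clec3b, 2.10 for Penk and 1.11 for Dpt. Whether depth or endothelial RNA moved the ratios in cells with no such UMI was not tested.

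Ly6c1 and Ly6c2 are near-identical neighbours, so their reads can be split between them and the Ly6c1 level is uncertain to that extent. Of nonzero Ly6c1 values, 94.7% UUO-labelled and 96.7% sham-labelled were whole within 1e-06, against 55.4% and 24.6% of nonzero Ly6c2 values. Ly6c2 was at 7.3 CPM in UUO-labelled and 0.804 CPM in sham-labelled fibroblasts. Ly6e, another gene of the cluster, was within 2-fold at 325 and 252 CPM.

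A list of 20 other genes known from the same vessel-coat fibroblasts was read in the same cells. In fibroblasts, 15 of the 20 were at least 2-fold higher where labelled UUO (12.3% of all genes) and 1 was lower (4.94% of all genes). The other 4 were within 2-fold, and the median log2 ratio was 2.31. By log2 ratio after adding 5 CPM, which holds back genes near 0 in one library, the highest were Pcolce2, an enhancer of procollagen processing, at 253 CPM UUO-labelled and 7.88 CPM sham-labelled, Scara5, a ferritin receptor, at 128 and 2.63 CPM, and Tppp3, a tubulin-binding protein, at 211 and 13.3 CPM. The lowest on that scale was Fbn1, which encodes the microfibril protein fibrillin-1, at 118 CPM UUO-labelled and 278 CPM sham-labelled. Next came Anxa3, an annexin, at 98.8 and 86.5 CPM, and Axl, a receptor tyrosine kinase, at 189 and 161 CPM. Of 15 activated fibroblast genes, 14 passed the filter. In UUO-labelled fibroblasts 12 of these were at least 2-fold lower (4.94% of all genes) and 0 higher (12.3% of all genes). Their median log2 ratio was -2.21. Both lists were chosen with earlier results of these data known, so their counts are a description and no independent support. Acta2, smooth muscle actin, was at 320 CPM UUO-labelled and 1511 CPM sham-labelled, and Postn, which encodes periostin, was within 2-fold at 154 and 78.8 CPM.

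The share of cells with a UMI depends on depth, so each cell was thinned to 3000 UMIs. This kept 457 UUO-labelled fibroblasts and left out 244, and kept 7457 sham-labelled ones and left out 1719. At equal depth every identity gene was found in a larger share of UUO-labelled than of sham-labelled fibroblasts. Clec3b was found in 68.1% (63.6 to 72.3%) of UUO-labelled and 2.28% (1.95 to 2.64%) of sham-labelled fibroblasts, and without thinning in 68.9% and 3.84%. Pi16 was found in 62.8% (58.2 to 67.2%) and 14.8% (14 to 15.7%), and without thinning in 67.9% and 24.8%. Both genes were thus found in a majority of UUO-labelled and a minority of sham-labelled fibroblasts. Cd34 was found in 33.3% UUO-labelled and 7.04% sham-labelled (unthinned 38.5% and 12.9%), Ly6a in 59.1% and 23.7% (63.3% and 41.3%) and Ly6c1 in 40.7% and 12.6% (47.5% and 23.3%). Col14a1 was found in 55.1% and 22.7% (64.6% and 38.3%), Penk in 40.7% and 12.1% (42.1% and 20.7%) and Gsn in 100% and 80.5% (96.7% and 90.8%). For Dpt the difference was seen only at equal depth, with 51.4% (46.7 to 56.1%) UUO-labelled and 35.9% (34.8 to 37%) sham-labelled there but 51.1% and 52% without thinning.

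Free RNA in droplets gives UMIs in cells that do not express a gene, so the same shares were read in proximal tubule cells and macrophages. The median depth was 1760 UMIs in UUO-labelled proximal tubule cells and 4705 in UUO-labelled fibroblasts, and 35 of the tubule cells reached 3000 UMIs. Pi16 was found in 54.3% (36.6 to 71.2%) of these, Ly6a in 48.6% (31.4 to 66%) and Ly6c1 in 40% (23.9 to 57.9%), intervals that hold the fibroblast shares. The UUO-labelled shares of these 3 genes thus do not separate fibroblasts from tubule cells at this depth, although their CPM was higher in fibroblasts. Ly6a was also found in sham-labelled tubule classes, at 342 CPM in proximal tubule cells, so tubule cells are not known to lack it here. Clec3b, found in 37.1% (21.5 to 55.1%) of the tubule cells, Dpt in 20% (8.44 to 36.9%), Penk in 11.4% (3.2 to 26.7%) and Cd34 in 11.4% (3.2 to 26.7%) were below the fibroblast shares, while Gsn was found in all of the tubule cells. Sham-labelled macrophages had a median of 5204 UMIs, against 8166 in fibroblasts, and 301 reached 3000. Col14a1 was found in 22.3% (17.7 to 27.4%) of them, Ly6a in 19.9% (15.6 to 24.9%) and Ly6c1 in 10.6% (7.39 to 14.7%), and these intervals again hold the fibroblast shares of 22.7%, 23.7% and 12.6%. The Cd34 share of 4.32% (2.32 to 7.27%) has an interval that reaches the fibroblast share too. Clec3b at 0.332% (0.00841 to 1.84%), Pi16 at 8.97% (5.99 to 12.8%), Penk at 5.32% (3.07 to 8.49%) and Dpt at 12.3% (8.8 to 16.5%) were below it.

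**Figure D2:**
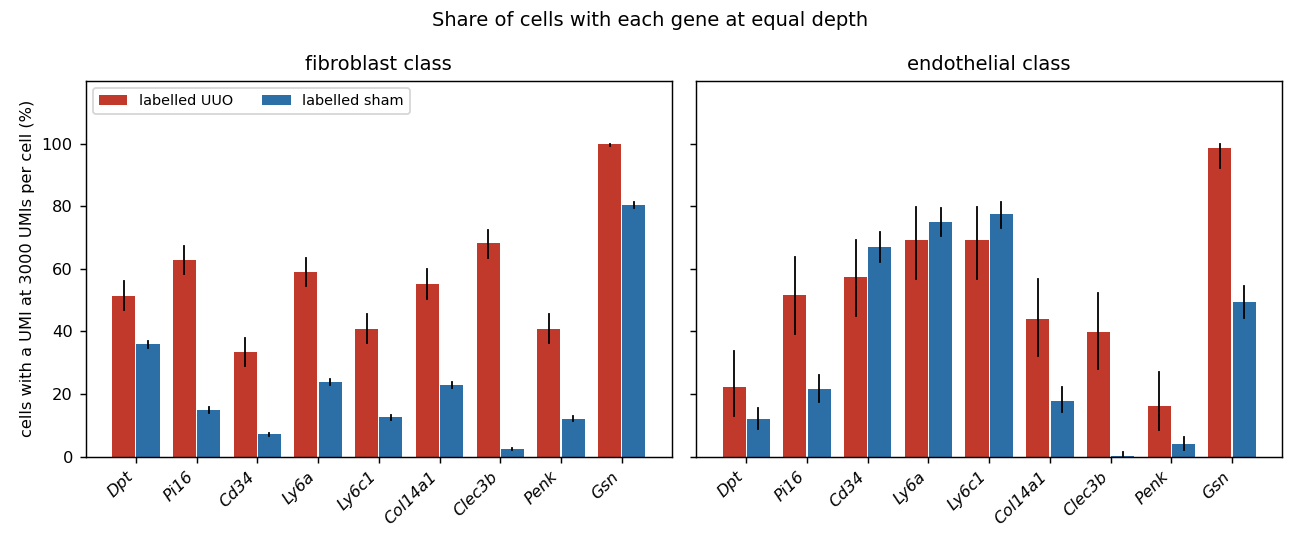
Share of cells with at least 1 UMI of each identity gene after thinning to 3000 UMIs, in percent, in fibroblasts and in endothelial cells, red for the UUO-labelled and blue for the sham-labelled library, with exact 95% binomial intervals. In fibroblasts Clec3b has the widest gap (68.1% and 2.28%), while in endothelial cells Cd34, Ly6a and Ly6c1 are found in a majority of cells of both libraries.

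Expression was uneven among fibroblasts of one library. At 3000 UMIs per cell, Clec3b averaged 5.11 UMIs per UUO-labelled fibroblast, with a median of 1 and a highest value of 46, and 158 of 457 cells held at least 5. Per sham-labelled fibroblast it averaged 0.0467 UMIs, yet 17 of 7457 cells held at least 5 and the highest value was 15. A few sham-labelled cells thus held Clec3b in number while most held none. Gsn had a median of 12 and a highest value of 224 UMIs in UUO-labelled fibroblasts, and 2 and 41 in sham-labelled ones.

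UUO-labelled fibroblasts held a median of 5 of the 9 genes (mean 5.11) and sham-labelled ones a median of 2 (mean 2.12). At least 6 genes were found in 40.5% (35.9 to 45.1%) of UUO-labelled fibroblasts, where genes found independently of each other at the same shares would give 39.1%. The same was true of 1.52% (1.25 to 1.82%) of sham-labelled fibroblasts, where independence would give 0.222%. Sham-labelled cells with many identity genes were thus few but more common than the single shares give. All 9 genes were found in 21 UUO-labelled fibroblasts (4.6%, 2.87 to 6.94%, against 0.394%) and in 3 sham-labelled ones (0.0402%). At the low end, 39 UUO-labelled fibroblasts held 2 of the genes (8.53%, against 2.34%), so UUO-labelled cells with many and with few were both more common than independence gives.

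**Figure D3:**
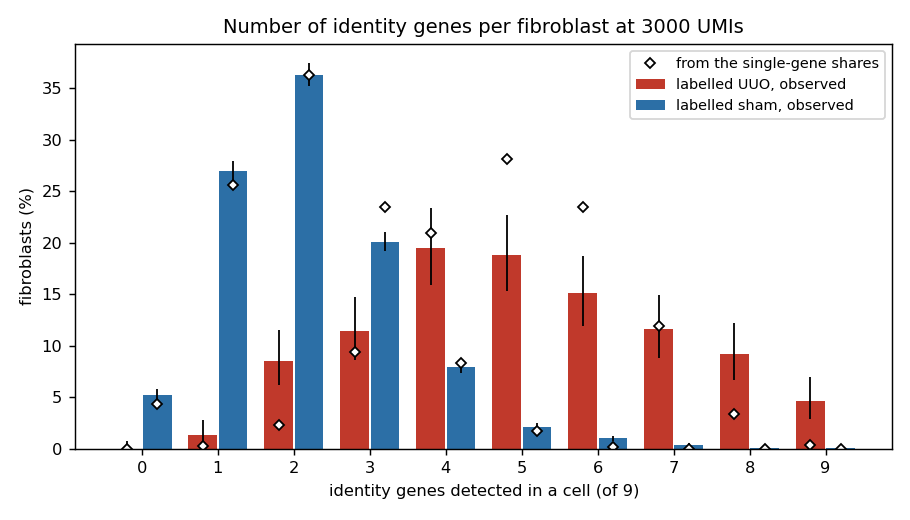
Share of fibroblasts, in percent, by the number of the 9 identity genes found in a cell at 3000 UMIs, red for the UUO-labelled (457 cells) and blue for the sham-labelled library (7457 cells), with exact 95% intervals. Diamonds mark what independence gives, and the UUO-labelled intervals lie above them at 1, 2, 8 and 9 genes and below them at 5 and 6.

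Pairs of genes were compared by the share of fibroblasts with UMIs of both over the product of the separate shares, so that a ratio of 1 means no association at equal depth. The ratio cannot exceed the inverse of the larger share, so genes found in most cells have less room above 1. Since shares were larger in UUO-labelled cells, the size of a ratio is not comparable between the libraries. Each interval is that of the joint share divided by the product, which was taken as fixed. It is not an interval for association, and a pair whose interval holds 1 can still be associated. UUO-labelled Ly6a was found in 67.2% (60.8 to 73.2%) of fibroblasts with Dpt and 50.5% (43.7 to 57.2%) without, yet that pair's interval holds 1. Of the 36 pairs, 12 had an interval above 1 and 0 below 1 in UUO-labelled fibroblasts, with a median ratio of 1.09. In sham-labelled fibroblasts 19 lay above and 7 below, with a median of 1.15. Gsn was found in 100% of UUO-labelled fibroblasts, so its 8 pairs carry no information there.

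In UUO-labelled fibroblasts the pairs above 1 mostly held Cd34, Dpt, Penk or Clec3b, and some held Ly6c1, Pi16 or Ly6a. Cd34 and Penk were both found in 20.4% of them, against a product of 13.5%, a ratio of 1.5 (1.24 to 1.8). The ratio was 1.39 (1.17 to 1.64) for Dpt and Cd34, 1.34 (1.14 to 1.55) for Dpt and Penk and 1.26 (1.1 to 1.42) for Clec3b and Penk. It was 1.36 (1.1 to 1.64) for Cd34 and Ly6c1, 1.27 (1.08 to 1.47) for Pi16 and Cd34, 1.25 (1.06 to 1.46) for Dpt and Ly6c1 and 1.16 (1.03 to 1.3) for Dpt and Clec3b. Penk was found in 51.1% of 311 fibroblasts with Clec3b and in 18.5% of 146 without. Col14a1 had no pair above 1, with ratios of 0.936 to 1.04 in its 7 pairs other than Gsn. The Gsn level divided the cells likewise. UUO-labelled fibroblasts averaged 42.1 Gsn UMIs with Clec3b and 7.61 without, a ratio of 5.53 (5.2 to 5.88). The same ratio was 3.17 for Penk, 2.63 for Cd34 and 2.58 for Dpt but 0.731 (0.707 to 0.755) for Col14a1, so cells with Col14a1 held less Gsn. Cells with Col14a1 also held more endothelial marker UMIs than those without, 2.35 and 1.62 per cell. With at most 5 such UMIs per 10000, the co-detection ratios of Col14a1 with genes other than Gsn were 1.02 to 1.14. Whether endothelial RNA set Col14a1 apart was not tested.

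The few sham-labelled fibroblasts with Clec3b often held other identity genes. Pi16 and Clec3b were both found in 76 of 7457 cells, against 25.2 from the product, a ratio of 3.01 (2.38 to 3.76). With Clec3b, Cd34 had a ratio of 3.01 (2.11 to 4.16), Ly6c1 2.94 (2.26 to 3.76), Ly6a 2.7 (2.22 to 3.25) and Col14a1 2.2 (1.76 to 2.72). Pi16 and Cd34 had 2.27 (1.95 to 2.63), and Ly6a and Ly6c1 1.88 (1.71 to 2.06). Penk had both directions in sham-labelled cells: its ratio was 0.706 with Cd34, 0.72 with Col14a1, 0.737 with Ly6c1, 0.789 with Pi16 and 0.856 with Ly6a, but 1.2 (1.09 to 1.32) with Dpt and 1.55 (1.06 to 2.19) with Clec3b. Sham-labelled fibroblasts with Penk held 1.25 endothelial marker UMIs per cell and those without 1.81, while those with Cd34 held 2.09 and those without 1.72. Those with and without Pi16 held 1.75 and 1.74, and with and without Ly6a 1.76 and 1.74, so endothelial UMIs differed for some genes of these pairs and not for others. In the 3581 sham-labelled fibroblasts with at most 5 endothelial marker UMIs per 10000, 0 pairs had an interval wholly below 1, but these are fewer cells with wider intervals. The ratio of Penk there was 0.966 with Cd34, 0.87 with Col14a1, 0.882 with Ly6c1, 0.852 with Pi16 and 0.931 with Ly6a, and that of Dpt and Cd34 was 0.832, against 0.854 in all. Some ratios were thus closer to 1 and others about as low. In the same cells Pi16 and Clec3b had a ratio of 3.52 and Cd34 and Clec3b one of 4.34. That choice left 231 UUO-labelled fibroblasts and 2 pairs above 1, with 1.24 for Cd34 and Penk. In these cells the ratio was 1.15 for Dpt and Cd34, 1.15 for Dpt and Penk and 1.14 for Clec3b and Penk. Among all thinned UUO-labelled fibroblasts, those with Cd34 held fewer endothelial marker UMIs than those without, 1.22 and 2.43 per cell. So did those with Dpt (1.43 and 2.65), Clec3b (1.67 and 2.78) and Penk (1.39 and 2.46), while those with Col14a1 held more.

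**Figure D4:**
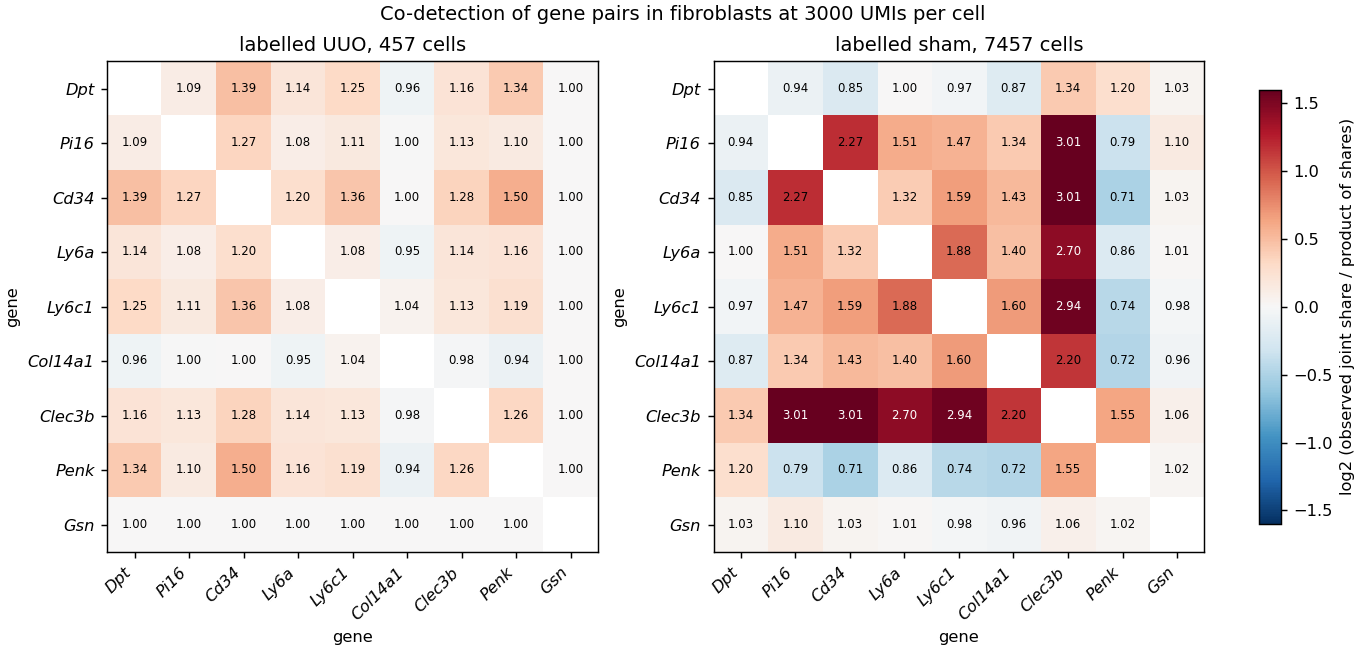
Share of fibroblasts with UMIs of both genes over the product of the separate shares, for all 36 pairs at 3000 UMIs per cell, in the UUO-labelled (left) and sham-labelled library (right), with the ratio printed in each square and its log2 as colour. Sham-labelled pairs of Clec3b reach 3.01 and that of Penk and Cd34 is 0.706, while UUO-labelled pairs of Col14a1 stay near 1.

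Fibroblasts were also ranked within each library by the UMIs of 15 activated fibroblast genes and split into 4 bins of nearly equal size. The bins do not cover one range, since a cell at 3000 UMIs held 0 to 48 UMIs of the list where labelled UUO and 4 to 1258 where labelled sham. The median was 10 such UMIs in the highest UUO-labelled bin and 16 in the lowest sham-labelled one. UUO-labelled bins met at 2, 4 and 7 UMIs, where tied cells were split by their order. Tagln and Acta2 gave 22.6% and 17.3% of the list's UMIs in UUO-labelled fibroblasts, and Spp1 gave 61% in sham-labelled ones, so the ranking was repeated without them. Ratios below are UMIs per cell in the highest over the lowest bin. Their intervals come from UMI counts and leave out the spread between cells. They are too narrow where few cells hold most UMIs. In UUO-labelled fibroblasts Penk averaged 0.395 UMIs in the highest and 2.28 in the lowest bin, a ratio of 0.173 (0.123 to 0.238), which was 0.209 without Spp1 and 0.358 without Acta2 and Tagln. Dpt had a ratio of 0.365 (0.277 to 0.478), which was 0.387 and 0.62 under those changes. Penk and Dpt were thus lower in the highest than in the lowest UUO-labelled bin under each ranking tried. Gsn had ratios below 1 too, at 0.349, 0.362 and 0.877. The others depended on Acta2 and Tagln: Clec3b had 0.364 with them in the ranking and 1.17 without, Cd34 0.383 and 1.28, Pi16 0.781 and 2.4, Ly6a 0.758 and 1.86 and Col14a1 1.53 and 0.991. Without them the intervals of Cd34 and Col14a1 held 1, so no direction was left for these. Those of Clec3b (1.04 to 1.31) and Gsn (0.839 to 0.918) lay close to 1, so their direction there is not firm. Ly6c1 had 0.895 (0.653 to 1.23), an interval that holds 1, and 1.86 without Acta2 and Tagln.

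In sham-labelled fibroblasts Clec3b averaged 0.00751 UMIs in the highest and 0.107 in the lowest bin, a ratio of 0.0704 (0.0378 to 0.121), which was 0.0991 without Spp1 and 0.104 without Acta2 and Tagln. Ly6a, Ly6c1 and Col14a1 had ratios of 0.449, 0.454 and 0.488 and lay between 0.32 and 0.626 under both changes. Cd34 had the opposite direction, at 0.196 UMIs in the highest and 0.0761 in the lowest bin, a ratio of 2.57 (2.11 to 3.14), which was 1.53 and 3.83 under the changes. Clec3b, Ly6a, Ly6c1, Col14a1 and Cd34 thus kept their direction under each ranking tried. Pi16 had 1.01 (0.908 to 1.13), 0.746 without Spp1 and 1.61 without Acta2 and Tagln. Dpt, Penk and Gsn had 0.641, 0.523 and 0.763, but 1.3, 0.93 and 1.01 without Spp1, where the intervals of Penk and Gsn held 1.

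**Figure D5:**
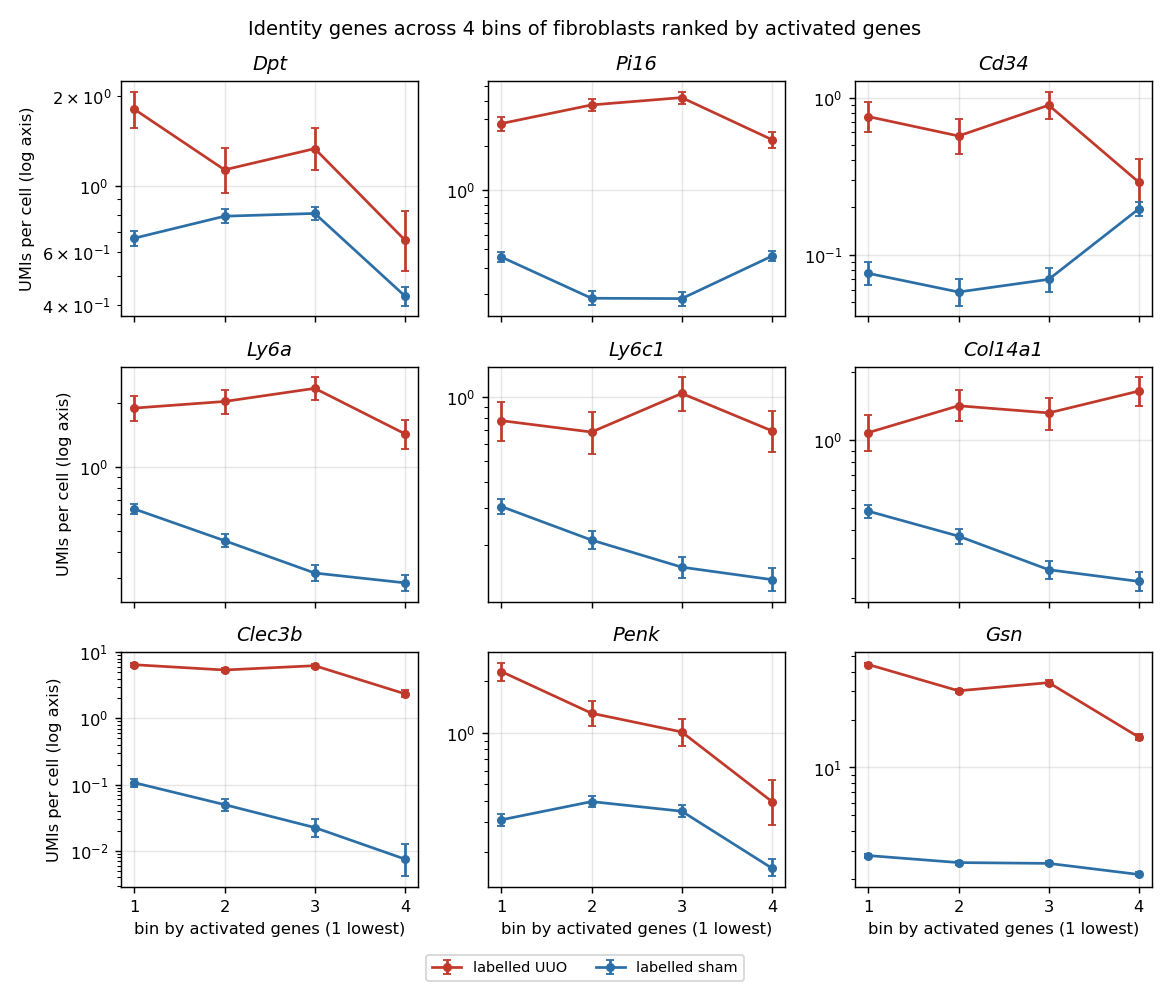
Mean UMIs per fibroblast of each identity gene on a log axis, in 4 bins of fibroblasts ranked within each library by 15 activated fibroblast genes at 3000 UMIs per cell, red for the UUO-labelled and blue for the sham-labelled library, with 95% Poisson intervals. Sham-labelled Clec3b is at 0.107 in the lowest and 0.00751 in the highest bin and sham-labelled Cd34 at 0.0761 and 0.196. Without Acta2 and Tagln in the ranking the UUO-labelled ratios of Pi16, Ly6a and Clec3b move to the other side of 1, Clec3b only to 1.17. Those of Cd34 and Col14a1 then have intervals that hold 1. Without Spp1 the sham-labelled ratio of Dpt moves to the other side of 1 and the interval of Gsn holds 1. Intervals leave out the spread between cells.

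The genes whose UMIs went most closely with the sum of the 9 genes were read at 3000 UMIs per cell on a log scale after adding 1. Over 457 UUO-labelled fibroblasts and 6603 genes, these were Serpinf1 (0.70), Dcn (0.64), Gm32885 (0.64), Rnase4 (0.62), C3 (0.59), each with Pearson's r in brackets. Gsn averaged 31.1 UMIs per UUO-labelled fibroblast and Clec3b, the next, 5.11, so the sum follows Gsn more than any other gene. All of these cells share 1 library, and Serpinf1 and Dcn are markers used for the fibroblast class. Over 7457 sham-labelled fibroblasts and 6228 genes the leading ones were Fbln1 (0.20), Col3a1 (0.20), Dcn (0.18), Serping1 (0.16), Matn2 (0.16), values too weak in sparse counts to count as a finding. Sfrp4, which encodes a secreted modulator of Wnt signals, divided fibroblasts by Clec3b and by some other identity genes. Clec3b was found in 76.7% (71 to 81.7%) of 253 UUO-labelled fibroblasts with Sfrp4 and in 57.4% (50.3 to 64.2%) of 204 without. Among sham-labelled ones it was found in 21.1% (16.5 to 26.4%) of 279 with Sfrp4 and in 1.55% (1.27 to 1.86%) of 7178 without. Sham-labelled Ly6a was found in 49.8% with Sfrp4 and 22.7% without, and Pi16 in 35.5% and 14%. UUO-labelled Cd34 was found in 41.9% and 22.5%. Others differed little, such as UUO-labelled Ly6a at 60.1% and 57.8% and sham-labelled Gsn at 80.3% and 80.5%.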

How the data were processed

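Single-cell libraries of mouse kidney (10x Chromium version 2) were analysed, 1 labelled UUO and 1 labelled sham, grouped by the labels alone. The values the authors deposited are expected counts (UMIs per gene and cell), made with alevin of Salmon 0.13.1 on mm10, per the submitters' processing notes. The choice of barcodes made upstream and strand use were not given in the sources used here. Alevin can share a UMI among genes, and 91.2% of nonzero UUO-labelled and 92.3% of sham-labelled values were whole within 1e-06. GENCODE M21 held 52806 of 53698 entries by identifier and version.

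Cells under 500 UMIs or 300 genes, or with over 20% mitochondrial UMIs, were left out. A class other than fibroblast needed UMIs of at least 3 of its markers and at least 20 marker UMIs per 10000 (erythroid 500). Cells that met more than 1 were called mixed (42 UUO-labelled, 87 sham-labelled) and set aside, and no doublet caller was run. The rest were fibroblasts with at least 3 markers and 50 marker UMIs per 10000. Values were summed per class and scaled to CPM. Log2 ratios were taken after adding 5 CPM among genes with at least 10 CPM in either group. Intervals are exact Poisson, Clopper-Pearson or conditional binomial at 95%, and a count of 0 was set against 3 counts. For shares, expected counts were made whole at random in proportion to their fraction and cells thinned without replacement to 3000 UMIs.

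Calculations used Python 3.11.15, numpy 2.4.6, scipy 1.17.1, pandas 2.3.3 and matplotlib 3.10.9 and were tested on simulated counts. Named were all 9 identity genes, the 3 highest and 3 lowest log2 ratios of the related list and the 5 genes most correlated with the sum. Sfrp4 was named outside these rules. The genes and lists were chosen with earlier results of these data known. Alternatives changed class thresholds, added CPM, scaling, filters, thinning depth, seed, the choice of cells and the ranking list.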

Additional observations from a re-analysis of the deposited data

Results flagged for a closer look

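Several ratios lay on opposite sides of 1 in the UUO-labelled and the sham-labelled library. With 1 library of each kind, none of these differences was tested. Pi16 in fibroblasts over endothelial cells had a ratio of CPM of 2.1 UUO-labelled and 0.708 sham-labelled. The co-detection ratio of Cd34 and Penk was 1.5 in UUO-labelled and 0.706 in sham-labelled fibroblasts, and 1.24 and 0.966 in those with at most 5 endothelial marker UMIs per 10000. That of Dpt and Cd34 was 1.39 UUO-labelled and 0.854 sham-labelled. Between the highest and lowest bin by activated genes, the ratio of Cd34 UMIs per cell was 0.383 UUO-labelled and 2.57 sham-labelled, and that of Col14a1 was 1.53 and 0.488. Without Acta2 and Tagln in the ranking, the UUO-labelled values were 1.28 for Cd34 and 0.991 for Col14a1.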

How the results depend on the processing

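Of the 9 genes, 8 or 9 were at least 2-fold higher in UUO-labelled fibroblasts under each of 18 alternatives, and every gene's log2 ratio stayed above 0 in all of these but the filter on low genes, which was run for the count alone, with these ranges: Dpt 0.75 to 1.67, Pi16 2.70 to 4.14, Cd34 1.96 to 3.45, Ly6a 1.23 to 2.63, Ly6c1 1.43 to 2.59, Col14a1 1.37 to 2.09, Clec3b 4.81 to 6.91, Penk 1.36 to 2.42, Gsn 3.38 to 4.22. The lowest values of Dpt, Cd34 and Ly6a came from all retained cells. The number of pairs above the product depended on depth and the choice of cells. For UUO-labelled fibroblasts it was 12, against 19 at 1000 UMIs, 4 at 5000 UMIs, 2 with at most 5 endothelial marker UMIs per 10000 and 0 in the 32 with no endothelial marker UMI. For sham-labelled ones it was 19, against 12 in the 341 with no endothelial marker UMI. In those cells some ratios lay on the other side of 1: UUO-labelled Dpt and Ly6c1 0.98, and sham-labelled Dpt and Cd34 1.16, Dpt and Col14a1 1.02, Pi16 and Penk 1.04, Pi16 and Gsn 0.984, Ly6c1 and Penk 1.76 and Col14a1 and Penk 1.09. Ranking without Acta2 and Tagln turned the UUO-labelled bin ratio to 2.4 for Pi16, 1.28 for Cd34, 1.86 for Ly6a, 0.991 for Col14a1 and 1.17 for Clec3b, and ranking without Spp1 turned the sham-labelled one to 1.3 for Dpt and 1.01 for Gsn. The intervals of Cd34, Col14a1 and Gsn then held 1, and that of Clec3b lay close to 1. The cause was not tested. Cell choices by depth, sex-linked, endothelial or shared-barcode criteria and the shortened rankings were chosen after seeing the data. No paired analysis was possible because each group has 1 library. The 457 UUO-labelled fibroblasts at 3000 UMIs limit the precision of every share there.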
